A study of Homo sapiens with 18 samples.

Results

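The genes described here are receptor tyrosine kinases, a class of cell surface receptors that cross the membrane once and enter the endoplasmic reticulum (ER) during their synthesis by way of a signal peptide. Of 42 receptor genes listed by symbol, 37 had at least 10 counts in at least 3 of the 18 RNA-Seq libraries and form the set analysed, out of 15150 rows that met the same count rule in a table of 25435 rows. INSRR, EPHA1, TIE1, ALK and MUSK fell under the rule, with 12 counts as the highest value of any of them in any library.

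The libraries came from HEK293doxERN2 cells, a human embryonic kidney line whose genome holds a FLAG-ERN2 transgene under a doxycycline switch. ERN2 (IRE1β) is an ER stress sensor normally restricted to mucosal epithelium, and a relative of the ubiquitous sensor ERN1. Cells received 0, 10 or 100 ng/mL doxycycline over 24 hours, and at each dose either vehicle (DMSO) or 200 nM thapsigargin, which blocks the calcium pump of the ER, for 3 hours. Each of the 6 groups had 3 libraries, and all groups carried the transgene, so that "uninduced" means without doxycycline and not without the transgene. The source labels do not say whether the 3 libraries of a group came from separate cultures. The p-values therefore measure only the spread between these libraries.

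Receptor tyrosine kinases bind growth factors, ephrins, collagen or Wnt proteins outside the cell and phosphorylate tyrosines inside it, which recruits adaptor proteins and activates the RAS-ERK and PI3K pathways. Their mRNAs are translated at the ER membrane, where the RNase domain of IRE1 proteins cuts the XBP1 mRNA in a pair of stem-loops so that it can be spliced, and can cut other mRNAs in the process called regulated IRE1-dependent decay. The cytosolic tyrosine kinases, such as SRC, and the adaptors downstream of the receptors are made on free ribosomes and serve as the contrast.

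The IRE1 RNase cuts XBP1 in loops of 7 bases with the letters CNGCAGN. Both XBP1 sites are shown because they set the pattern that was searched for in the receptors, with the loop in capitals and the flanking stem in lower case (GENCODE 29, GRCh38, minus strand, exon 4, coding sequence). The first lies at chr22:28796139-28796165 and the second at chr22:28796113-28796139.
XBP1 site 1: tctgctgagtCCGCAGCactcagacta
XBP1 site 2: acgtgcacctCTGCAGCaggtgcaggc
The same loop closed by a stem of 4 Watson-Crick pairs was found in the GENCODE transcript of 0 of the 36 receptors tested at 100 ng/mL. It was present in 3.88% of the 12724 tested genes with a matched transcript, in 5.05% of those as long as the receptors that fell, and in 6.49% of all genes that fell. These letters with this stem are only 1 description of a cleavage site, and their absence from 1 transcript per gene says nothing further about cleavage. The 6-base core CTGCAG occurred in all 36 receptor transcripts, at a median of 0.754 per kb in the receptors that fell, 0.854 per kb in the others and 0.716 per kb over all genes.

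Receptors enter the ER by way of a signal peptide, and cytosolic kinases have none. Many of the hydrophobic residues of a signal peptide, but not all, are written with codons that carry T at the second position. For each gene the 15 codons among the first 40 with the most such T were taken from GENCODE 29 (GRCh38). They are shown for 4 receptors that fell at 100 ng/mL and for 2 cytosolic kinases of the SRC family, with second-position T in capitals.
PTK7: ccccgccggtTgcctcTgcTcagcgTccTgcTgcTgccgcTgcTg
RYK: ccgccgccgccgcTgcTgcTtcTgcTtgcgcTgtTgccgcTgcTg
DDR1: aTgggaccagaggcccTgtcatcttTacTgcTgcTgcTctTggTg
FLT1: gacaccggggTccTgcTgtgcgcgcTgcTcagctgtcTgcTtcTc
SRC: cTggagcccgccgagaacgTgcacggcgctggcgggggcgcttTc
YES1: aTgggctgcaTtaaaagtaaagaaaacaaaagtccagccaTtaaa
These windows lie at chr6:43076519-43076563 (plus strand, PTK7), chr3:134250538-134250582 (minus, RYK), chr6:30888730-30888774 (plus, DDR1), chr13:28494784-28494828 (minus, FLT1), chr20:37384205-37384249 (plus, SRC) and chr18:756783-756827 (minus, YES1), each within 1 exon. PTK7, RYK and DDR1 had 9 such codons of 15 and FLT1 had 8, against 3 each in SRC and YES1, which is the lowest value among the cytosolic kinases. The measure overlapped between the lists. It ran from 5 to 13 with a median of 8 over the tested receptors and from 3 to 8 with a median of 6 over the 22 tested cytosolic kinases. A value of 10 was reached by 8 of 36 receptors (22.2%) and by 0 of 22 cytosolic kinases. Over all tested genes with a transcript 5.82% reached it, as did 22.6% of all genes that fell. Among the receptors the measure did not follow the call: the 15 that fell had 7 to 11 and the 21 others 5 to 13.

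Library totals ran from 14876416 to 24652240 counts. ERN2 itself followed the labels, at 6.66 to 9.26 CPM (counts scaled by TMM to a common library size) in uninduced vehicle-treated cells, 22.9, 27.2 and 56.8 CPM at 10 ng/mL and 244 to 308 CPM at 100 ng/mL. With thapsigargin it was 10.5 to 14.4 CPM, then 32.3, 54.5 and 111 CPM, then 167 to 268 CPM. The third library at 10 ng/mL thus had the most ERN2 of its group under both treatments. The extraction notes name colon crypt cells, but the intestinal markers KRT20, MUC2, TFF3, VIL1, FABP1 and CA1 were at 0 to 0.242 CPM in every library, and EPCAM (6.93 to 22.6 CPM) and CDX2 (3.21 to 8.94 CPM) were low. The HEK293 markers VIM, NEFL and EYA1 were present in all 18, and a further marker of the line, NEFM, fell at 100 ng/mL with vehicle (log2 fold change -0.73 ± 0.122, edgeR adjusted p = 0.00116). The summed level of 8 colon markers ranged over 19.4 to 27.6 CPM in uninduced and 15.5 to 18.8 CPM in 100 ng/mL vehicle libraries, and that of 5 blood and endothelial markers over 0.104 to 0.440 CPM in both groups together. Their part in the results was not tested.

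Without doxycycline the receptors spanned a ratio of 380 in CPM per kb of transcript. PTK7, a Wnt co-receptor with an inactive kinase domain, was highest at 36.9 ± 2.4 CPM per kb (SD, n = 3). The collagen receptor DDR1 followed at 35.3 ± 4.23, then the ephrin receptors EPHA7 at 33.7 ± 2.7 and EPHA2 at 29.5 ± 3.45, and the Wnt receptor RYK at 24.8 ± 3.46 CPM per kb. The lowest was the second collagen receptor, DDR2, at 0.0971 ± 0.0524 CPM per kb. Of the 36 pairs of neighbours in this order, 30 had overlapping libraries, so the order within most stretches is not resolved by 3 libraries. The order also depends on the length of the 1 GENCODE transcript taken per gene, while the counts are per gene. That transcript had 4272 bases for PTK7, whose exons together cover 9024, and 6588 for EPHA7, whose exons cover 7456. In CPM without division by length, IGF1R was highest.

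At 100 ng/mL doxycycline without thapsigargin, 15 of the 36 receptors tested fell and 0 rose (edgeR quasi-likelihood test, Benjamini-Hochberg adjusted p under 0.01 over all 14444 genes tested). Over all genes 8.33% changed, 7.49% downward and 0.838% upward. In 31 of 36 receptors the log2 fold change was below 0, as in 50.8% of all genes, with a median of -0.55 against -0.01 over all genes, and in 24 the 3 induced libraries all lay below the 3 uninduced ones, a pattern seen in 18.3% of all genes. The summed CPM of the 37 receptors was 1925 to 1938 without doxycycline, 1729 to 1894 at 10 ng/mL and 1284 to 1405 at 100 ng/mL, a mean at the high dose of 68.9% of the uninduced mean. Over the 32 cytosolic tyrosine kinases the sum was 1474 to 1512 CPM without and 1436 to 1567 CPM with 100 ng/mL, and these ranges overlap. In bulk RNA, fewer cells of a type and less RNA per cell cannot be told apart.

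**Figure D1:**
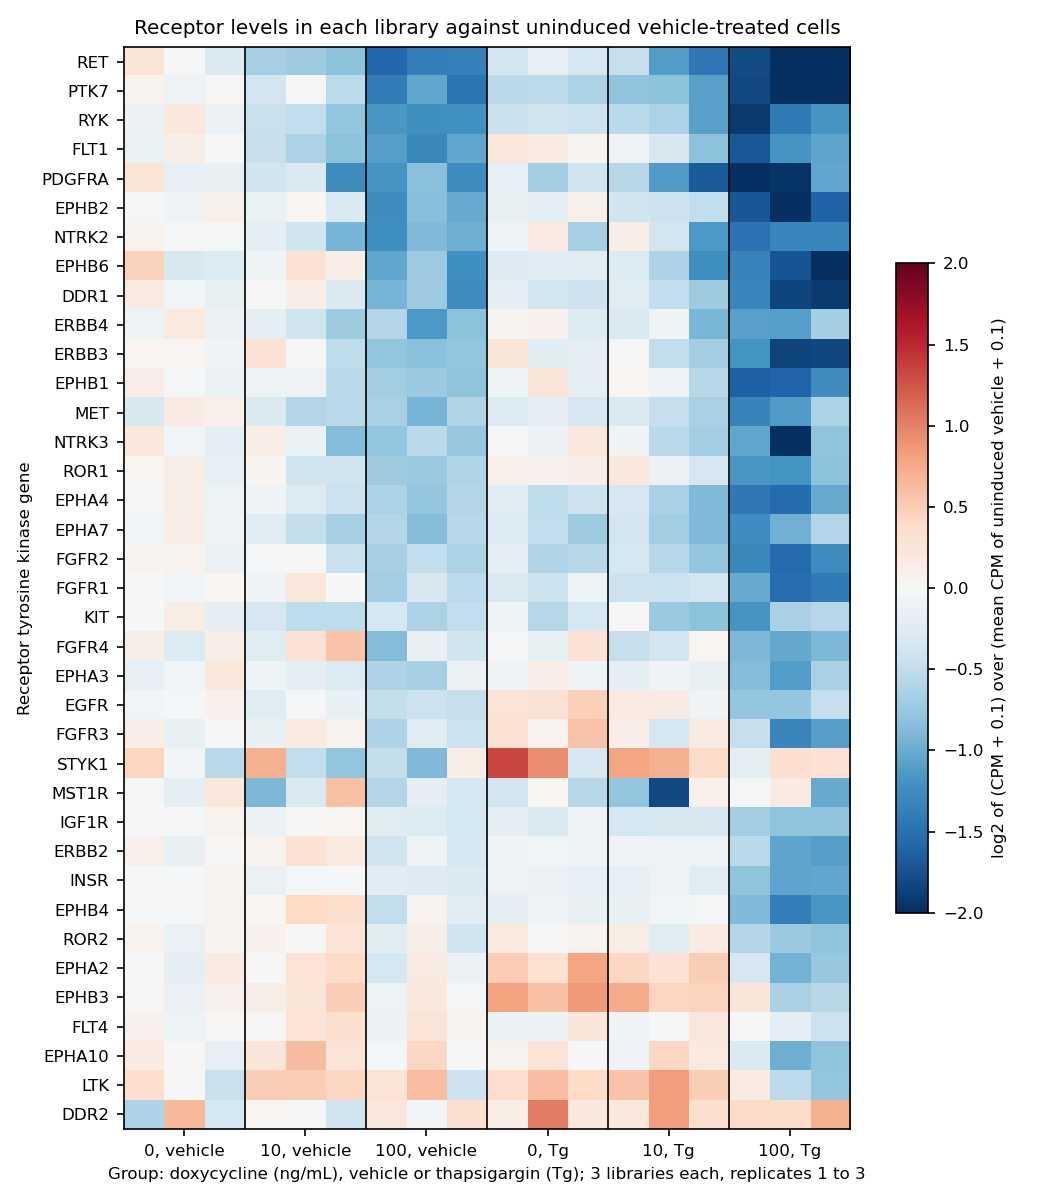
Each row is 1 of the 37 receptor genes and each column 1 of the 18 libraries, grouped by doxycycline dose and treatment, with 3 libraries per group. Colour gives log2 of CPM plus 0.1 over the mean of the uninduced vehicle libraries plus 0.1. Rows are ordered by the mean in the 100 ng/mL vehicle libraries, and blue, for lower levels, fills most rows at 100 ng/mL and deepens with thapsigargin.

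Of the Wnt-binding receptors, PTK7, RYK and ROR1 fell. PTK7 was at 166, 146 and 160 CPM in the uninduced libraries and at 59.9, 76.4 and 57.0 CPM at 100 ng/mL. The induced libraries were all well below the uninduced ones, and the log2 fold change was -1.29 ± 0.129 (SE, adjusted p = 1.98e-05). RYK, which binds Wnt through a WIF domain and whose kinase domain is inactive, went from 66.9, 84.7 and 67.2 CPM to 32.5, 31.0 and 31.5 CPM. The induced libraries of RYK lay close together and far below the uninduced ones, at a log2 fold change of -1.20 ± 0.126 (adjusted p = 2.91e-05). ROR1, a receptor for WNT5A, went from 22.9, 24.4 and 19.9 CPM to 13.7, 13.4 and 14.7 CPM (log2 fold change -0.69 ± 0.135, adjusted p = 0.00378). Its relative ROR2 stood at 15.4, 13.4 and 15.1 CPM and at 12.5, 15.9 and 11.0 CPM, which overlap (log2 fold change -0.15 ± 0.162, adjusted p = 0.573).

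RET, the receptor for GDNF-family ligands, had the largest decrease among the receptors that passed, on low levels. It was at 6.51, 5.50 and 4.47 CPM uninduced and at 1.79, 2.05 and 2.09 CPM at 100 ng/mL, with no overlap (log2 fold change -1.47 ± 0.214, adjusted p = 0.000381). FLT1, a VEGF receptor, went from 59.8, 71.4 and 65.3 CPM to 30.6, 26.7 and 32.0 CPM (log2 fold change -1.14 ± 0.125, adjusted p = 4.14e-05). The other listed VEGF receptor, FLT4, overlapped, at 51.0, 44.6 and 48.6 CPM against 44.2, 57.3 and 50.0 CPM (log2 fold change 0.07 ± 0.127, adjusted p = 0.741). FLT1 was thus at 45.5% and FLT4 at 105% of the uninduced level. NTRK2, the receptor for BDNF, went from 6.00, 5.56 and 5.63 CPM to 2.40, 3.07 and 2.87 CPM (log2 fold change -1.04 ± 0.186, adjusted p = 0.00197). Its relative NTRK3, the receptor for neurotrophin-3, was at 4.78, 3.96 and 3.60 CPM against 2.35, 2.79 and 2.40 CPM, which do not overlap but missed the threshold (log2 fold change -0.71 ± 0.207, adjusted p = 0.0386).

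DDR1, the collagen receptor, was at 158, 134 and 126 CPM and then at 73.4, 84.1 and 58.6 CPM (log2 fold change -0.95 ± 0.142, adjusted p = 0.000503). All 3 induced libraries were under every uninduced one, while DDR2 had about 1 CPM in both groups and no resolvable difference (log2 fold change 0.18 ± 0.377, adjusted p = 0.784). MET, the receptor for HGF, was at 50.5, 71.2 and 68.1 CPM and then at 40.5, 33.2 and 41.6 CPM (log2 fold change -0.72 ± 0.15, adjusted p = 0.00552). MST1R, its relative, had about 1 CPM or less in each library of both groups, and these overlapped (log2 fold change -0.39 ± 0.333, adjusted p = 0.461). FGFR2 was at 63.4, 63.7 and 55.2 CPM and then at 38.4, 43.3 and 39.3 CPM, the smallest change of those that passed (log2 fold change -0.59 ± 0.117, adjusted p = 0.00399). The remaining FGF receptors did not pass, although FGFR1 was close, at 107, 103 and 109 CPM against 65.2, 84.7 and 73.8 CPM (log2 fold change -0.51 ± 0.118, adjusted p = 0.0115). FGFR3 was at 50.4, 41.4 and 46.1 CPM against 30.1, 38.8 and 34.3 CPM, again without overlap (log2 fold change -0.42 ± 0.134, adjusted p = 0.057). FGFR4 was at 6.87, 5.23 and 6.96 CPM against 3.42, 5.74 and 4.80 CPM, which overlap (log2 fold change -0.44 ± 0.215, adjusted p = 0.196).

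In the ERBB family, the receptors for EGF and neuregulins, the 2 neuregulin receptors fell. ERBB3, which has a weak kinase, was at 7.78, 7.81 and 7.20 CPM and then at 4.34, 4.22 and 4.33 CPM (log2 fold change -0.82 ± 0.16, adjusted p = 0.00353). ERBB4 was at 21.2, 26.0 and 20.9 CPM and then at 15.1, 10.2 and 12.8 CPM (log2 fold change -0.84 ± 0.166, adjusted p = 0.00375). EGFR was at 27.2, 27.4 and 29.9 CPM and then at 20.2, 20.9 and 20.5 CPM, a separation of the groups that missed the threshold (log2 fold change -0.45 ± 0.12, adjusted p = 0.0231). ERBB2, which has no known ligand of its own, overlapped, at 103, 86.8 and 97.5 CPM against 72.6, 91.2 and 74.97 CPM (log2 fold change -0.27 ± 0.123, adjusted p = 0.174). The insulin receptor family did not pass either: INSR had a log2 fold change of -0.26 ± 0.0999 (adjusted p = 0.108) and IGF1R of -0.29 ± 0.0956 (adjusted p = 0.0666), with the IGF1R libraries at 260, 264 and 282 CPM against 227, 221 and 211 CPM.

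Of the listed ephrin receptors, 4 of the 10 tested fell, and EPHA5, outside the list, is given further below. EPHB2 was at 46.7, 45.7 and 51.4 CPM and then at 20.2, 26.4 and 23.9 CPM (log2 fold change -1.03 ± 0.133, adjusted p = 0.000147). EPHA7, the most abundant of them in CPM, was at 213, 242 and 210 CPM and then at 148, 122 and 150 CPM (log2 fold change -0.66 ± 0.115, adjusted p = 0.00151). EPHA4 was at 43.5, 48.3 and 41.2 CPM and then at 28.5, 25.6 and 29.4 CPM (log2 fold change -0.67 ± 0.123, adjusted p = 0.00222). EPHB1 was at 13.4, 12.1 and 11.3 CPM and then at 7.51, 7.26 and 6.94 CPM (log2 fold change -0.76 ± 0.147, adjusted p = 0.00353). In all 4 the induced libraries lay below every uninduced one. EPHA2 stayed within the spread of the libraries, at 117, 103 and 131 CPM against 92.0, 133 and 108 CPM (log2 fold change -0.08 ± 0.142, adjusted p = 0.76), as did EPHB3 (log2 fold change 0.04 ± 0.169, adjusted p = 0.889). EPHA3, EPHA10 and EPHB4 also overlapped, at log2 fold changes of -0.45 ± 0.178, 0.15 ± 0.174 and -0.19 ± 0.139 (adjusted p = 0.118, 0.61 and 0.384). EPHB6, which has an inactive kinase domain, had a larger estimate on scattered values, at 9.05, 5.23 and 5.45 CPM against 3.17, 3.94 and 2.77 CPM (log2 fold change -0.99 ± 0.243, adjusted p = 0.0154).

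Among the remaining receptors, PDGFRA, a PDGF receptor, was low, at 1.98, 1.43 and 1.45 CPM against 0.664, 0.861 and 0.626 CPM (log2 fold change -1.16 ± 0.305, adjusted p = 0.0224). KIT, the receptor for stem cell factor, was at 15.9, 17.5 and 13.9 CPM against 12.3, 10.1 and 11.2 CPM (log2 fold change -0.49 ± 0.149, adjusted p = 0.0439). The groups of both genes were apart without passing the threshold. LTK, a relative of ALK, overlapped (log2 fold change 0.23 ± 0.273, adjusted p = 0.601). STYK1 was too low to be tested here.

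RET, PTK7, RYK, DDR1, EPHB2 and FLT1 passed in each of the 13 alternative fits of this comparison. Leaving out the third library at 100 ng/mL gave 9 receptors instead of 15, with 6.3% of all genes called instead of 8.33%.

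**Figure D2:**
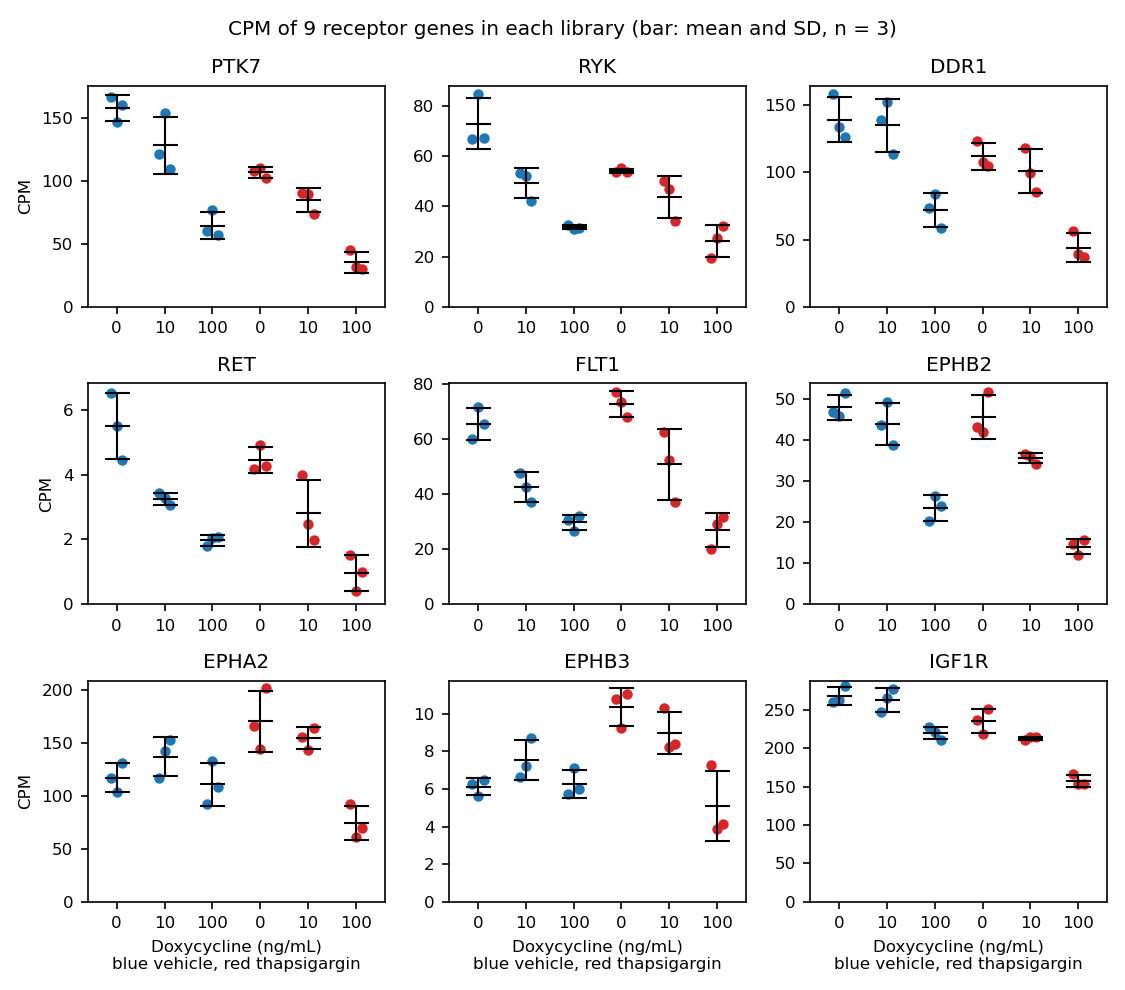
CPM of 9 receptor genes in each of the 18 libraries against doxycycline dose (0, 10 and 100 ng/mL), blue for vehicle and red for thapsigargin, with bars for the mean and SD of 3 libraries. PTK7 runs from 166 CPM to 29.8 CPM over the libraries, and EPHA2, at 103 to 131 CPM in uninduced vehicle libraries, is at 60.9 to 92.5 CPM at 100 ng/mL with thapsigargin.

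At 10 ng/mL, 0 of 36 receptors passed by edgeR, where 0.193% of all genes passed. At an unadjusted p under 0.05 there were 12 receptors (30.5% of all genes), and DESeq2 called 2 (3.26% of all genes with an adjusted p). The receptor closest to the threshold was FLT1, at 47.7, 42.6 and 37.0 CPM against the uninduced 59.8, 71.4 and 65.3 CPM (log2 fold change -0.63 ± 0.13, adjusted p = 0.0494). RYK was at 53.4, 52.0 and 42.3 CPM (log2 fold change -0.57 ± 0.137, adjusted p = 0.0714) and RET at 3.42, 3.27 and 3.06 CPM (log2 fold change -0.76 ± 0.205, adjusted p = 0.0771). These 3 genes are the ones closest to the threshold. Among the 36 receptors, 24 had a log2 fold change below 0 and 12 above. In 8 every 10 ng/mL library lay below every uninduced one, and in 3 every one lay above. The share of all genes with such a separation was not counted at this dose. FLT1, RYK and RET were among the 8, and in them the third library, the one with the most ERN2, was the lowest. Whether its ERN2 level sets its receptor levels was not tested. Without the first library at 10 ng/mL, 4 receptors passed, where 18.8% of all genes did.

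Over the 3 doses, the means fell in the order 0, 10, 100 ng/mL for 24 of 37 receptors (64.9%), against 17.3% of all 15023 genes compared. This order is not separate from the result at 100 ng/mL. There, 31 of 36 receptors and 50.8% of all genes had a log2 fold change below 0. Between 10 and 100 ng/mL, 4 receptors fell and 35 of 36 had a log2 fold change below 0 (2.45% of all genes passed and 47% were below 0). They were EPHB6 (-1.10 ± 0.196, adjusted p = 0.00895), PTK7 (-0.98 ± 0.156, adjusted p = 0.00576), DDR1 (-0.90 ± 0.156, adjusted p = 0.00813) and EPHB2 (-0.89 ± 0.147, adjusted p = 0.00677). DDR1 is an example of a late step: it was at 139, 152 and 114 CPM at 10 ng/mL, which overlaps the uninduced libraries, and at 73.4, 84.1 and 58.6 CPM at 100 ng/mL. All 4 calls were lost without the second library at 10 ng/mL, and likewise without the first or the third at 100 ng/mL, where 0.0611%, 0.143% and 0% of all genes passed.

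Thapsigargin alone, in uninduced cells, changed 3 of 37 receptors, where 11.2% of all genes changed, 4.74% downward and 6.45% upward. PTK7 fell, from 166, 146 and 160 CPM to 108, 109.7 and 102 CPM (log2 fold change -0.55 ± 0.0999, adjusted p = 0.00187). EPHA2, a receptor for A-type ephrins, rose from 117, 103 and 131 CPM to 166, 144 and 202 CPM (log2 fold change 0.55 ± 0.132, adjusted p = 0.00931). EPHB3, a receptor for B-type ephrins, rose from 6.25, 5.61 and 6.50 CPM to 10.8, 9.23 and 11.1 CPM (log2 fold change 0.77 ± 0.159, adjusted p = 0.0042). No library of any of the 3 overlapped the other group. Without the first uninduced vehicle library 0 of the 3 passed, without the second only PTK7 and without the third only 1 receptor, where 5.02%, 7.8% and 6.32% of all genes passed. A fit with all 6 groups called 0 receptors and 8.47% of all genes.

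In thapsigargin-treated cells, 21 of 37 receptors fell at 100 ng/mL doxycycline and 0 rose, where 10.5% of all 14358 genes changed, 9% downward and 1.53% upward. The log2 fold change was below 0 in 35 of 37, as in 46.1% of all genes, with a median of -0.94 against 0.04 over all genes, and 32 of 37 had every induced library below every uninduced one, against 23.2% of all genes. The summed level was 1677 to 1786 CPM without, 1467 to 1656 CPM with 10 ng/mL and 850 to 981 CPM with 100 ng/mL, and the mean at the high dose was 53.0% of the uninduced mean. The cytosolic tyrosine kinases summed to 1510 to 1568 CPM without and 1426 to 1519 CPM with 100 ng/mL.

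EPHB2 was at 43.0, 41.8 and 51.7 CPM without doxycycline and at 14.6, 11.9 and 15.5 CPM with 100 ng/mL (log2 fold change -1.63 ± 0.167, adjusted p = 2.88e-05). PTK7 was at 108, 109.7 and 102 CPM and then at 45.1, 31.7 and 29.8 CPM (log2 fold change -1.52 ± 0.175, adjusted p = 6.62e-05). RET was at 4.18, 4.91 and 4.27 CPM and then at 1.51, 0.409 and 0.987 CPM (log2 fold change -2.09 ± 0.363, adjusted p = 0.00138). The groups of all 3 receptors were far apart. EPHA2, which rose with thapsigargin in uninduced cells, was at 92.5, 60.9 and 69.5 CPM with 100 ng/mL and thapsigargin, below the 166, 144 and 202 CPM without doxycycline (log2 fold change -1.13 ± 0.173, adjusted p = 0.000566). FLT4 again overlapped, at 43.6, 44.1 and 56.9 CPM against 48.3, 42.5 and 35.8 CPM (adjusted p = 0.629).

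Vehicle and thapsigargin comparisons used separate libraries. The 12 receptors that fell in both were ERBB3, ERBB4, FGFR2, RET, ROR1, PTK7, RYK, DDR1, EPHA4, EPHB1, EPHB2 and FLT1, which is 80% of the vehicle calls and 57.1% of the thapsigargin calls, where over all genes the 825 shared calls are 76.2% and 63.9%. EGFR, ERBB2, INSR, FGFR1, FGFR3, ROR2, EPHA2, EPHB4 and EPHB6 passed with thapsigargin and not with vehicle, and EPHA7, MET and NTRK2 with vehicle and not with thapsigargin. Whether a receptor's change differs between vehicle and thapsigargin is tested by the interaction below, which called 0 receptors. Without the second library at 100 ng/mL with thapsigargin 9 receptors and 5.23% of all genes passed, and without the first uninduced thapsigargin library 12 receptors and 6.01%. Without the first library at 100 ng/mL with thapsigargin it was 29 receptors and 27.2% of all genes.

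**Figure D3:**
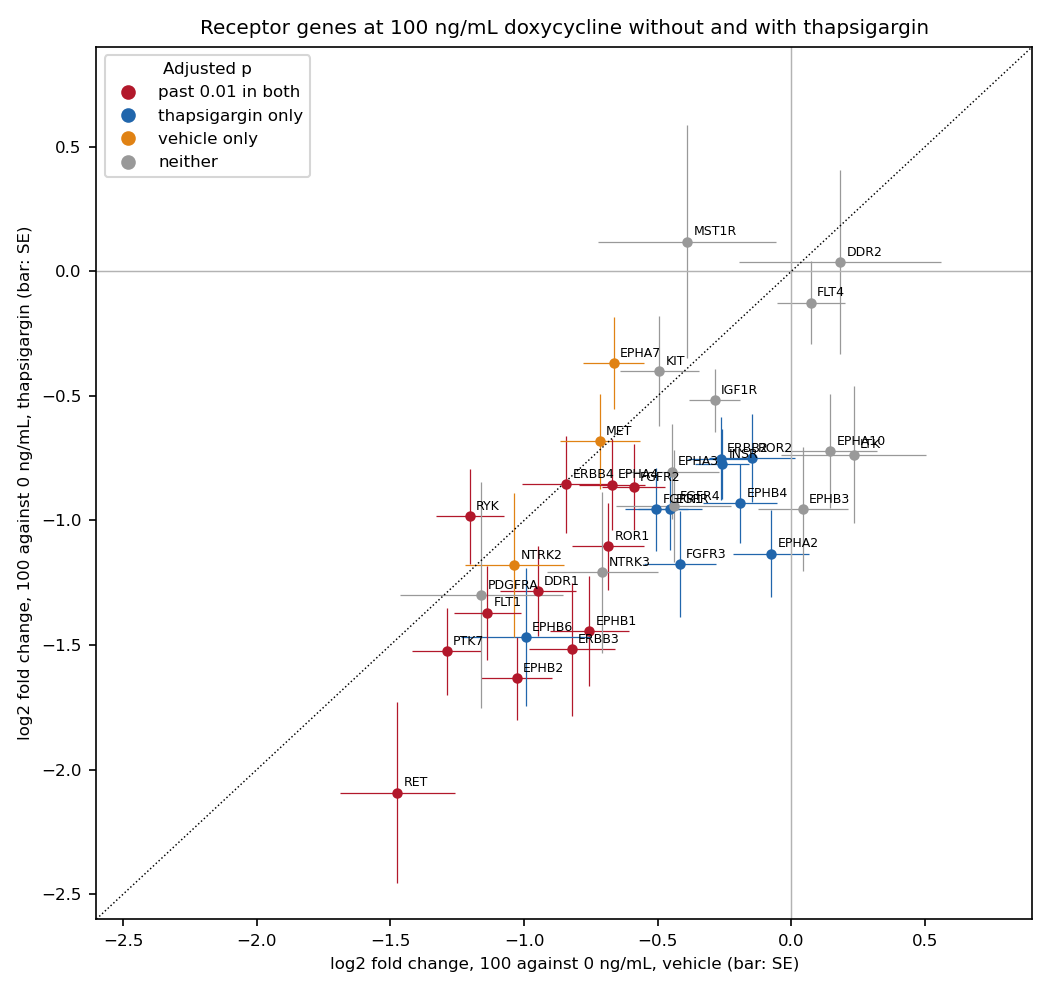
Log2 fold change of each receptor at 100 against 0 ng/mL doxycycline, with vehicle on the horizontal and thapsigargin on the vertical axis, bars for the SE, and colour for which comparison passed an adjusted p of 0.01. RET, at -1.47 and -2.09, lies lowest on both axes and EPHA2, at -0.08 and -1.13, lies below the diagonal.

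At 10 ng/mL with thapsigargin, 0 of 37 receptors passed by edgeR, as did 0% of all genes, with 4 receptors at an unadjusted p under 0.05 (4.22% of all genes) and 0 by DESeq2 (0.342%). The means fell in order of dose for 31 of 37 receptors (83.8%), against 26.8% of all genes. As with vehicle, this order is not separate from the result at the high dose. There, with thapsigargin, 35 of 37 receptors and 46.1% of all genes had a log2 fold change below 0. No label pairs the libraries, but those with the same replicate number varied together in the comparison of 10 against 0 ng/mL with thapsigargin. In an alternative edgeR fit with the replicate number as a block, 3.89% of all genes and 4 receptors passed. They were FLT1 (log2 fold change -0.54, adjusted p = 0.000269), PTK7 (-0.33, adjusted p = 0.00177), FGFR3 (-0.32, adjusted p = 0.00848) and EPHB2 (-0.35, adjusted p = 0.00955). The pairing was inferred from these same data, and the main fit without it called 0 receptors. FLT1 was at 76.9, 73.2 and 67.7 CPM without and 62.6, 52.5 and 37.0 CPM with 10 ng/mL.

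Thapsigargin in cells at 100 ng/mL changed 0 of 37 receptors by edgeR, where 0.201% of all genes changed. At an unadjusted p under 0.05 there were 17 receptors (27% of all genes), and DESeq2 called 6 (5.62%). The log2 fold change was below 0 in 34 of 37, as in 50.3% of all genes, with a median of -0.48, and 20 had every thapsigargin library below every vehicle library, against 15.8% of all genes. At 10 ng/mL 0 of 37 passed by edgeR and 1.45% of all genes did, with 9 receptors at an unadjusted p under 0.05 (24.7% of all genes) and 2 by DESeq2 (8.17%). The response to thapsigargin at 100 ng/mL minus that in uninduced cells, tested as an interaction, passed in 0 of 37 receptors by edgeR and in 0.0406% of all genes. At an unadjusted p under 0.05 there were 13 receptors (24.7% of all genes), and DESeq2 called 2 (2.94%). The difference was below 0 in 31 of 37, as in 46.7% of all genes, with a median of -0.36. EPHA2 had the lowest adjusted p of the receptors, at a log2 difference of -0.998 ± 0.228 (adjusted p = 0.0539), and EPHB3 had -0.94 ± 0.291 (adjusted p = 0.0935). Without the first library at 100 ng/mL with thapsigargin, 11 receptors and 17.6% of all genes passed for thapsigargin at 100 ng/mL, and 6 receptors and 8.6% of all genes in the interaction.

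The genes around the receptors were split by where their proteins are made. Over all genes, 7.49% fell and 0.838% rose at 100 ng/mL with vehicle, and the list counts stand beside these shares. At 100 ng/mL with vehicle, 2 of 10 other tested receptor tyrosine kinases fell, EPHA5 (log2 fold change -0.79 ± 0.164) and TYRO3 (-0.66 ± 0.141). Of the receptor-type tyrosine phosphatases, which reverse receptor phosphorylation, 9 of 12 fell, with PTPRF the most, at 250, 230 and 263 CPM against 65.1, 83.1 and 72.9 CPM (log2 fold change -1.75 ± 0.118, adjusted p = 7.54e-07). Of the co-receptors, proteins that present ligands or assist receptors, 12 of 20 fell, among them the heparan sulfate proteoglycan GPC3 (-2.25 ± 0.154, adjusted p = 8.47e-07), SORT1 (-1.75 ± 0.103, adjusted p = 3.03e-07), IGF2R, which binds IGF2 (-1.57 ± 0.105, adjusted p = 6.9e-07), and GFRA1, the co-receptor of RET (-1.38 ± 0.129, adjusted p = 1.15e-05). Of the ligands, 4 of 38 fell, EFNB3 (-1.94 ± 0.149), AGRN, EFNA2 and EFNB2. That is 10.5%, near the share of all genes that fell.

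Of the cytosolic tyrosine kinases 0 of 22 passed, with a median log2 fold change of 0.04, and of the cytosolic effectors, such as the adaptors and PI3K subunits, 1 of 45 fell, PIK3R2 (-0.54 ± 0.116, adjusted p = 0.00671). Of 20 genes of the ERK response and its feedback, 1 rose, EGR1 (0.71 ± 0.114, adjusted p = 0.000813). The log2 fold change was above 0 in 17 of the 20 and below 0 in 3, where 50.8% of all genes were below 0. Their median was 0.30 against -0.01 over all genes. With thapsigargin, 4 of 10 other receptors, 7 of 12 phosphatases, 13 of 20 co-receptors, 6 of 40 ligands, 0 of 21 cytosolic tyrosine kinases and 1 of 45 cytosolic effectors fell, and CCND1 (0.77 ± 0.177, adjusted p = 0.00852) and EGR1 (0.75 ± 0.174, adjusted p = 0.0089) rose. Over all genes, 9% fell and 1.53% rose with thapsigargin, and the ligands that fell are 15% of those tested. Of the 20 ERK response genes, 13 were above 0 and 7 below with thapsigargin, where 46.1% of all genes were below 0. Their median was 0.20 against 0.04 over all genes. These counts were read without a test of the lists.

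**Figure D4:**
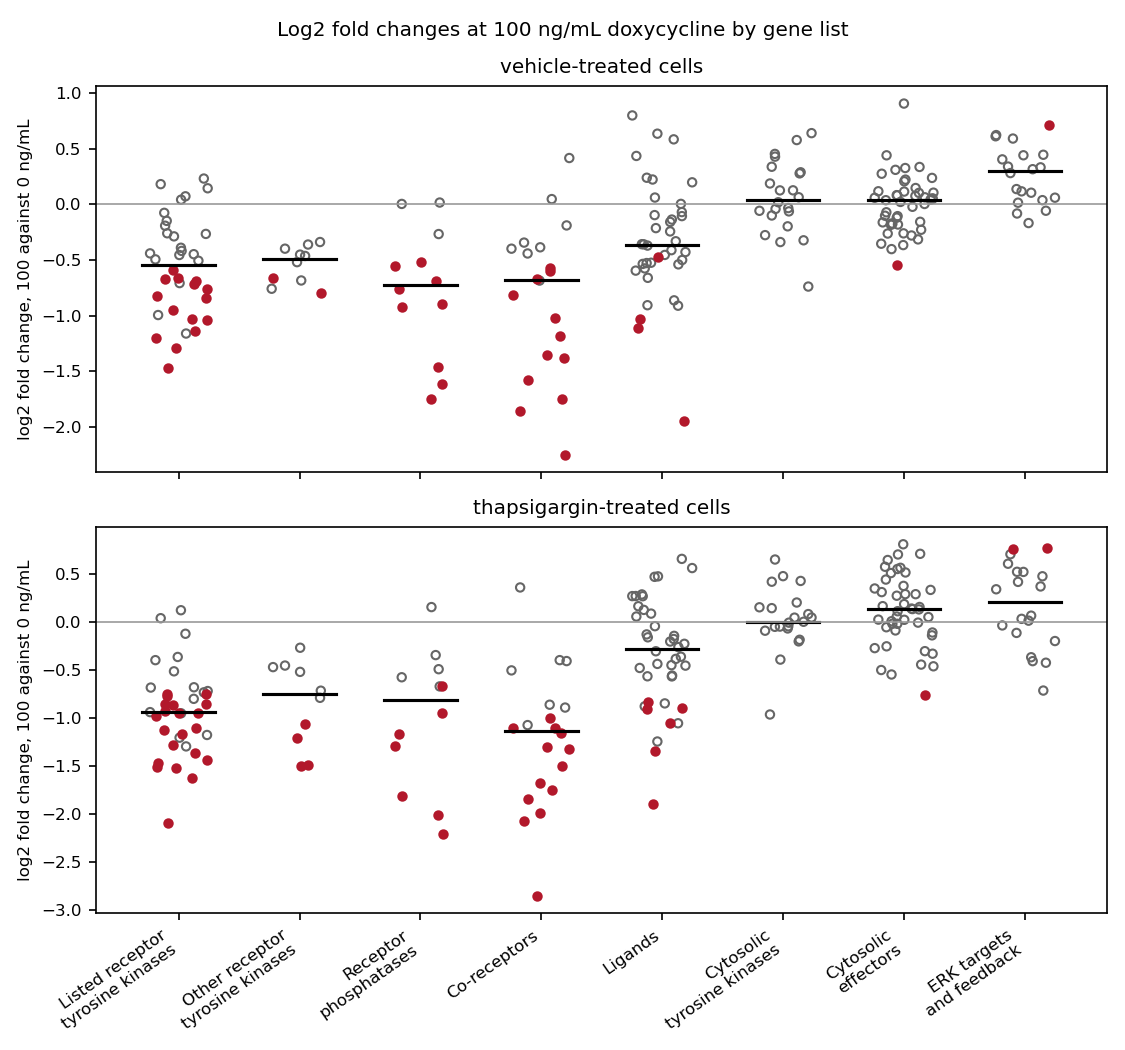
Log2 fold change at 100 against 0 ng/mL doxycycline for each tested gene of 8 lists, in vehicle-treated cells above and thapsigargin-treated cells below. Filled red points passed an adjusted p of 0.01, open points did not, and lines mark medians, which lie at -0.55 for the receptors and 0.04 for the cytosolic tyrosine kinases in vehicle-treated cells.

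The receptors that fell with vehicle had a lower GC content than the others, at a median of 45.1% of transcript bases against 59.4%, with 49.2% over all genes, and a median transcript length of 5832 against 4721 bases. PTK7, DDR1 and EPHB2, at 60.3%, 61.1% and 58.0% GC, fell as well. The lower GC content was seen for the vehicle calls only. For the thapsigargin calls the contrast was reversed, with the higher median in the receptors that fell. EPHA7, MET and NTRK2, which passed with vehicle and not with thapsigargin, had 37.9%, 42.4% and 43.4% GC. The receptors that passed with thapsigargin and not with vehicle ran from 47.5% (EGFR) to 62.6% (EPHB4). With a correction for GC content and length, chosen after the data were seen, 21 receptors fell with vehicle and 25 with thapsigargin, where 16.4% and 20.2% of all genes passed. Among 32 receptors with a RefSeq promoter (GRCh38.p14, 250 bases before to 50 after the start), the ER stress motifs ERSE (CCAAT and CCACG with a fixed gap), UPRE (TGACGTGG) and CARE (TGATGNAAT), searched on both strands, were found in 0, against 0.0769%, 0.729% and 0.991% of all promoters. These 3 motifs are too rare over all promoters for 0 among 57 receptor promoters to set the receptors apart. The core CCACG, which ERSE contains, was found in 24 of the 57 promoters of these receptors (42.1%), against 38.1% of all promoters.

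**Figure D5:**
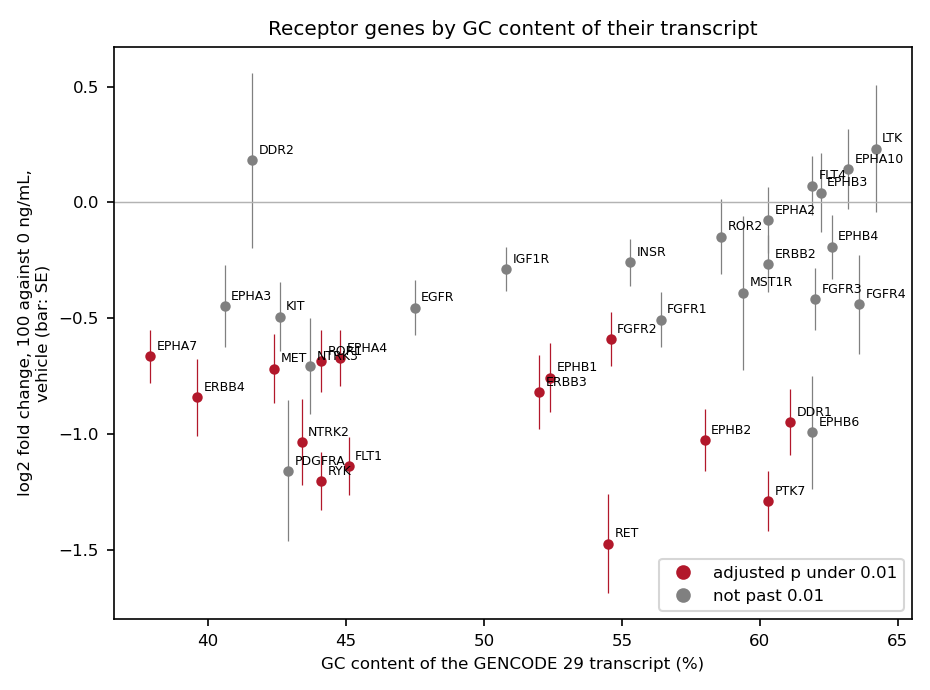
Log2 fold change at 100 against 0 ng/mL with vehicle, with bars for the SE, against the GC content of the GENCODE 29 transcript of each receptor. Red points passed an adjusted p of 0.01. The receptors that passed with vehicle have a median GC content of 45.1% and the others 59.4%, a contrast reversed for the thapsigargin calls.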

How the data were processed

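RNA-Seq was measured in 18 libraries of HEK293doxERN2 cells (6 groups of 3, grouped by the sample labels). The authors deposited raw read counts per gene symbol, made with STAR, with no normalization or filter. The submitters' processing notes name hg38 and DESeq2, and the annotation and strand setting are not given in the sources used here. Reads of overlapping and antisense genes (such as AC058822.1 with PDGFRA) and of the transgene and the resident ERN2 gene can therefore not be told apart. The table has 28 rows whose symbol a spreadsheet turned into a date, and 0 unused value columns.

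Each comparison used only its own groups. Genes kept by filterByExpr (minimum count 10) entered edgeR's quasi-likelihood test (version 4.0.16, TMM factors, R 4.3.3), adjusted by Benjamini-Hochberg over all genes, with a threshold of 0.01. The interaction used 12 libraries. SE is the absolute log2 fold change over the square root of F. CPM were scaled by TMM over all 18 libraries. Alternatives were DESeq2 1.42.0, RLE size factors, library totals, no filter, all 6 groups, the replicate block, an adjusted p of 0.05, each library left out, and a GC and length correction added later. The tests were tested on simulated counts. Receptors, gene lists and rules were chosen with earlier results of these data known. Receptors were described by family, those that passed in full and then their relatives as contrast. Figures used matplotlib 3.10.9. With 3 libraries per group the spread between libraries, more than counting, limits precision, and the smallest two-sided p of an exact permutation test would be 0.1.

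Replicate pairing was checked by the correlation of deviations from group means. It exceeded 0.1 in every pair only for 10 against 0 ng/mL with thapsigargin (0.401, 0.343 and 0.467). No pair of same-group libraries was equal within counting error (chi-square per degree of freedom 7.33 to 63.8), so all 18 libraries were counted.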

Additional observations from a re-analysis of the deposited data

How the results depend on the processing

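Of the single receptor values that passed, 163 of 195 at 100 against 0 ng/mL with vehicle kept their side of the threshold over the alternatives, 35 of 52 at 100 against 10 ng/mL, 234 of 273 at 100 against 0 ng/mL with thapsigargin and 25 of 39 for thapsigargin in uninduced cells, and 0 turned direction. In the order of the comparisons, the number of receptors that passed with 1 library left out ran from 9 to 17 (100 against 0 ng/mL, vehicle), 0 to 4 (10 against 0, vehicle), 0 to 4 (100 against 10), 9 to 29 (100 against 0, thapsigargin), 0 to 0 (10 against 0, thapsigargin), 0 to 3 (thapsigargin, uninduced), 0 to 0 (thapsigargin at 10 ng/mL), 0 to 11 (thapsigargin at 100 ng/mL) and 0 to 6 (interaction). The share of all genes that passed moved with them, in the same order from 6.27% to 9.56%, 0% to 18.8%, 0% to 3.37%, 5.23% to 27.2%, 0% to 0%, 5.02% to 13%, 0.188% to 3.32%, 0.0273% to 17.6% and 0.0134% to 8.6%.

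Percentages in parentheses are the share of all genes tested that passed in the same fit. With the replicate number as a block, 6 receptors passed at 100 against 0 ng/mL with vehicle (5.19%), 9 at 100 against 10 ng/mL (8.41%), 4 at 10 against 0 ng/mL with thapsigargin (3.89%), 8 for thapsigargin in uninduced cells (24.8%) and 9 for thapsigargin at 10 ng/mL (24.8%). No label gives a pairing, and the correlation of deviations exceeded 0.1 in every pair only in the third of these. At 100 against 10 ng/mL it was 0.521, 0.281 and -0.0177. For thapsigargin at 10 ng/mL it was 0.499, -0.0332 and 0.439. DESeq2 gave 2 receptors at 10 ng/mL with vehicle (3.26%), 5 for thapsigargin in uninduced cells (17.2%), 2 for thapsigargin at 10 ng/mL (8.17%), 6 at 100 ng/mL (5.62%) and 2 in the interaction (2.94%). Without a filter it was 2 at 10 ng/mL with vehicle (3.14%) and 1 for thapsigargin at 100 ng/mL (1.51%), and library totals gave 2 at 100 against 10 ng/mL (1.99%). With all 6 groups it was 0 for thapsigargin in uninduced cells (8.47%) and 8 at 100 ng/mL (6.26%). An adjusted p of 0.05 gave 1, 8, 2 and 5 receptors at 10 ng/mL with vehicle and for thapsigargin in uninduced, 10 ng/mL and 100 ng/mL cells (0.759%, 22.6%, 6.91% and 3.42%). The GC and length correction, chosen after seeing the data, gave 9 at 100 against 10 ng/mL (6.86%), 7 for thapsigargin in uninduced cells (21%), 8 at 100 ng/mL (7.28%) and 1 in the interaction (2.13%). The cause of these differences was not tested. Library totals moved the median of all genes in the interaction to -0.14.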
